A study of Mus musculus with 95 samples.

Results

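The 100 probes described here were chosen because their level in mouse thymoma lay above that in control thymus in areas of all 3 cell types sampled, epithelial, T and B cells. They are 100 of the 20175 probe IDs measured with the GeoMx Digital Spatial Profiler. Counts were pooled over all segments of a class and scaled to a common total (CPM), and a level is log2(CPM + 1). A probe could be chosen if its 5 control classes lay within 0.5 of each other, if thymoma epithelium and thymoma T cells differed by less than 0.5, and if the SD of its level in epithelium between the 4 thymoma mice was under 0.6. Of the 15986 probes within these limits, 1198 had all 5 differences of thymoma minus control above 0, and the 100 members are those whose smallest difference was largest. All differences between thymoma and control given below were thus selected on, and they are a description. Tests of these differences given further on rest on the same choice, so nothing is read from their p-values.

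The 4 thymoma mice, 1042, 1044, 1082 and 1157, were Gtf2ifl/wt and carried a Foxn1-Cre allele. The 4 control mice had no Cre: mice 1057 and 1059 were Gtf2ifl/fl, and mice 1172 and 1143 were Gtf2ifl/wt. Each slide held a pair of mice of the same genotype, 1042 with 1044, 1082 with 1157, 1057 with 1059 and 1172 with 1143, so slide cannot be told apart from group, nor from control genotype. Sections of fixed, embedded thymus were stained for pan-cytokeratin, CD3 and B220, and 95 segments were collected under these masks. Control segments were cortical epithelium, medullary epithelium, cortical T cells, medullary T cells and B cells, and thymoma segments were epithelium, T cells and B cells. Segments were summed for each mouse and class into 30 libraries, with 4 mice in every class except the control medullary ones, where mouse 1059 gave none and n was 3.

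The 4 thymoma mice stood for a knock-in of mutant Gtf2i, and the labels give no age. Gtf2i encodes TFII-I, a DNA-binding transcription factor, and a recurrent missense change of its human counterpart is known from thymoma. Foxn1 is the transcription factor of thymic epithelium, so a Foxn1-driven Cre acts in epithelial cells of cortex and medulla and not in lymphocytes. Cortical epithelium supports the selection of immature T cells, and medullary epithelium displays tissue antigens to T cells that have passed it. A mask on a section takes in RNA of neighbouring cells, and lymphocytes lie between the processes of epithelial cells, so a segment is a small region rather than a pure cell type. As in other bulk samples, fewer cells of a type and less RNA per cell cannot be told apart. Probe IDs were not paired with genes in the sources used here, so no gene, role or sequence is given to a member, and the labelled cell classes were not checked against marker genes.

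The libraries held 63805 to 36879809 counts. Control mouse 1143 yielded far less than the rest: its libraries had 45.4 to 77.4 counts for each nucleus, and those of the other 7 mice had 544 to 3160. In its B cell library 11 members had no count and 45 had fewer than 3, and in its cortical epithelium 5 had none and 30 fewer than 3. The SD of log2(CPM + 1) over probes was 0.97 to 1.14 in thymoma libraries and 0.79 to 2.29 in control libraries, from 0.79 to 0.93 in mouse 1172 up to 1.06 to 2.29 in mouse 1143. The part of depth and of this spread in the differences described here was not tested. Separate mice were the replicates, and p-values measure the spread between them. Where classes of the same thymoma mice were compared, p-values measure how the difference within a mouse varies between mice.

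The first member by rank, RTS0081419, had nearly the same mean in the 3 thymoma classes, 412 ± 164, 424 ± 209 and 419 ± 107 CPM (SD, n = 4) in epithelial, T cell and B cell libraries. Epithelium of the thymoma mice measured 605, 252, 303 and 486 CPM in mice 1042, 1044, 1082 and 1157, against 229, 174, 183 and 132 CPM in cortical epithelium of mice 1057, 1059, 1143 and 1172. The groups did not overlap, but mouse 1044 lay only slightly above the highest control. In thymoma T cells it stood at 696, 242, 279 and 480 CPM, in the same order of mice, against 214, 152, 186 and 126 CPM in control cortical T cells. Medullary epithelium of mice 1057, 1143 and 1172 gave 254, 106 and 99.6 CPM, and medullary T cells 243, 157 and 109 CPM. Mouse 1057 was the highest control in all 4 of these classes, and in both medullary classes it reached slightly above thymoma mouse 1044. In B cells the values were 508, 279, 391 and 498 CPM in thymoma and 297, 218, 407 and 189 CPM in control. There the groups overlapped, through mice 1057 and 1143, and the value of mouse 1143 rests on 26 counts. Its smallest difference of pooled levels, 0.96, was the largest of all probes within the limits. It left the limits, and so the list, in 5 of the 15 alternatives tried for the rule: without mouse 1057, 1082 or 1157, with Gtf2ifl/wt controls alone, and with the mean over mice.

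The second member, RTS0061379, differed more between the thymoma classes. It measured 180, 127, 114 and 207 CPM in epithelium of thymoma mice 1042, 1044, 1082 and 1157, and 142, 107, 72.3 and 126 CPM in their T cells. In their B cells it measured 99.3, 89.3, 69.1 and 125 CPM. Epithelium was the highest of the 3 classes in each thymoma mouse, and B cells the lowest. Cortical epithelium of control mice 1057, 1059, 1143 and 1172 gave 77.4, 63.1, 19.2 and 57.7 CPM, and B cells 72.5, 60.1, 0 and 61.8 CPM. The 0 in mouse 1143 allows up to 47.0 CPM, since 3 counts of its 63805 come to that. Control cortical T cells gave 71.6, 47.1, 18.3 and 46.1 CPM. In mice 1057, 1143 and 1172, medullary epithelium gave 70.3, 27.9 and 63.2 CPM and medullary T cells 76.5, 8.57 and 58.1 CPM. Every thymoma mouse lay above every control mouse in both epithelial contrasts and in cortical T cells, while mouse 1082 lay below mouse 1057 in medullary T cells and in B cells. Its rule value was 0.73, and it left the limits in 3 of the 15 alternatives, without mouse 1042, without mouse 1082 and with the mean over mice.

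**Figure D1:**
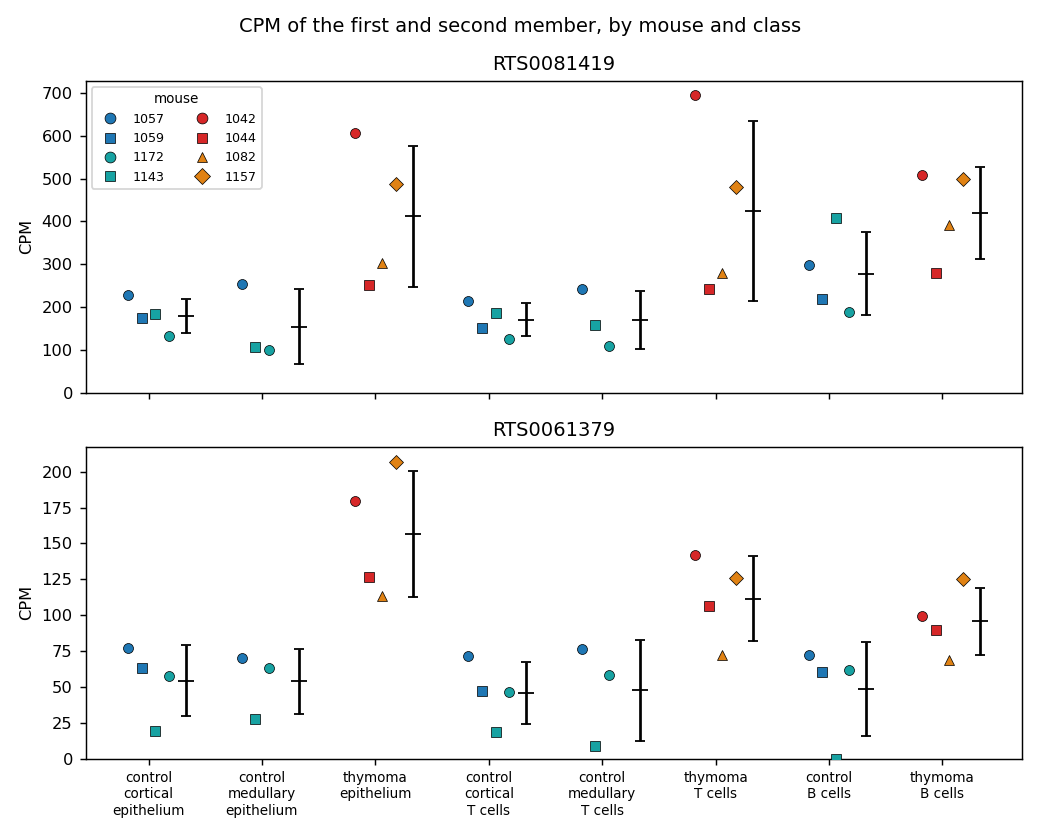
CPM of the members RTS0081419 (top) and RTS0061379 (bottom) in the library of each mouse, by class, with the mean and SD over mice beside the points. Thymoma mouse 1042 was highest for RTS0081419 in all 3 thymoma classes, and RTS0061379 was lower in thymoma B cells than in thymoma epithelium in each mouse.

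The next 8 members had smallest differences of 0.60 down to 0.48. The third stood in pooled CPM at 511 in control cortical epithelium and 776 in thymoma epithelium, at 453 in control cortical T cells and 831 in thymoma T cells, and at 580 and 891 in B cells of control and thymoma. The seventh stood at 201 and 328 CPM in control cortical and thymoma epithelium, at 191 and 301 CPM in control cortical and thymoma T cells, and at 170 and 252 CPM in B cells. Only 8 members had a smallest difference over 0.5, and the median over the 100 was 0.35. At the edge of the list the values lay close together, 0.2654 for the last member and 0.2650 for the next probe outside.

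Over all members, the median difference of pooled levels was 0.47 for thymoma epithelium minus cortical epithelium, a fold of 1.39, and 0.63 minus medullary epithelium, a fold of 1.55. In T cells it was 0.57 against cortex and 0.61 against medulla, folds of 1.48 and 1.53. In B cells it was 0.39, a fold of 1.31. The B cell difference was the smallest of the 5 in 59 members, whereas a T cell difference was the smallest in 5 members against cortex and in 4 against medulla. The rule asked for positive values, and the pooled levels of all probes moved the other way, with medians of -0.20 and -0.34 in epithelium, -0.23 and -0.35 in T cells, and -0.07 in B cells. Of all probes, 8.84% had 5 positive differences and 45.4% had 5 negative ones. These are shares of a fixed total, and the scaling bears on them: with trimmed-mean (TMM) scaling factors, which were 0.89 to 0.96 in pooled thymoma classes and 1.01 to 1.11 in control classes, 3046 probes within the limits had 5 positive differences in place of 1198, and 56 of the 100 members were chosen again.

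**Figure D2:**
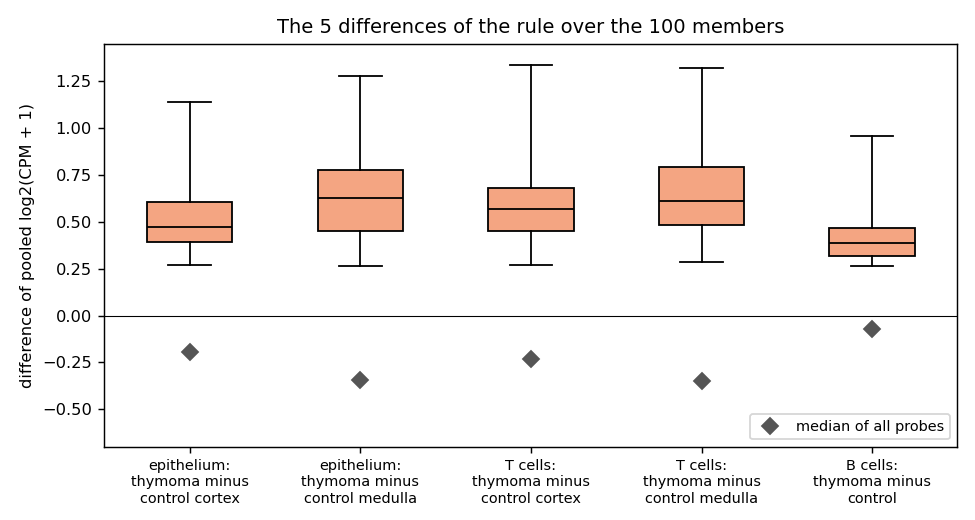
Difference of pooled log2(CPM + 1), thymoma minus control, for the 100 members in each of the 5 contrasts of the rule. Boxes give quartiles and median, whiskers the lowest and highest member, and diamonds the median of all probes. The members' medians run from 0.39 in B cells to 0.63 in epithelium against medulla, and the choice of members fixes that they are positive.

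The members' summed counts showed how the difference was spread over mice. In thymoma they took 2.26% ± 0.36 (SD, n = 4) of the counts in epithelium, 2.26% ± 0.47 (n = 4) in T cells and 2.18% ± 0.21 (n = 4) in B cells. In control they took 1.38% ± 0.29 (n = 4) in cortical epithelium, 1.23% ± 0.42 (n = 3) in medullary epithelium, 1.32% ± 0.19 (n = 4) in cortical T cells, 1.22% ± 0.42 (n = 3) in medullary T cells and 1.60% ± 0.26 (n = 4) in B cells. Thymoma mice 1042 and 1157 stood highest in epithelium, at 2.63% and 2.50%, and in T cells, at 2.88% and 2.36%. In B cells mice 1042, 1082 and 1157 lay between 2.24% and 2.31%, and mouse 1044 was lower, at 1.87%. Control values were lowest in mouse 1143 in every class and highest in mouse 1057. The groups overlapped in B cells, where mouse 1057 reached 1.95%, above mouse 1044, and in no other class. Single segments spanned 1.75% to 2.95% in thymoma and 0.71% to 1.95% in control.

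**Figure D3:**
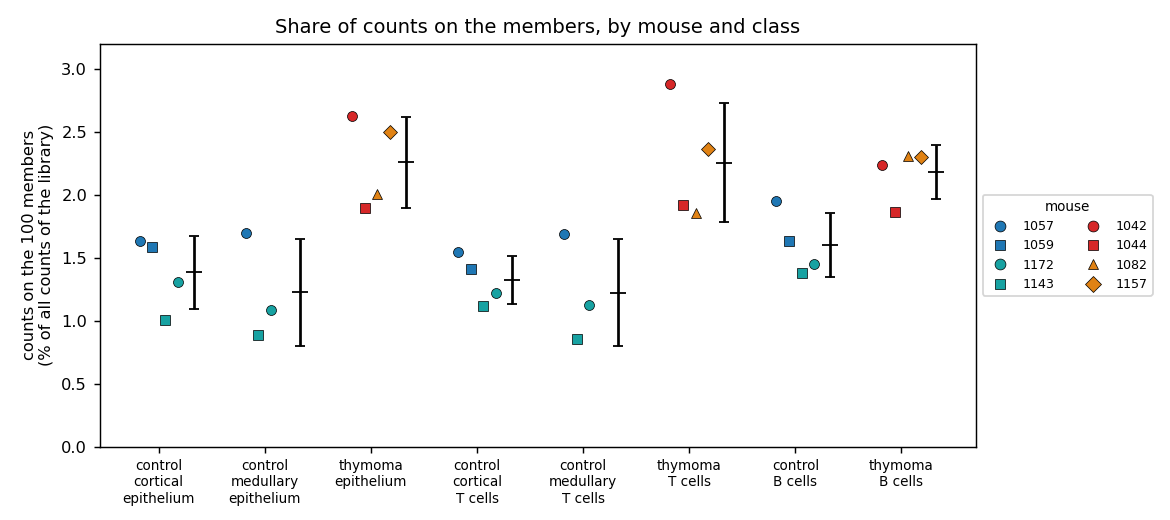
Share of all counts of a library that fell on the 100 members, in percent, for each mouse and class, with the mean and SD over mice. Thymoma libraries lie between 1.86% and 2.88% and control libraries between 0.86% and 1.95%, and the share is lower in the Gtf2ifl/wt controls 1172 and 1143 than in the Gtf2ifl/fl controls 1057 and 1059.

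Mouse by mouse, the median member stood 0.95, 0.60, 0.60 and 0.90 above the mean of the cortical epithelial controls in mice 1042, 1044, 1082 and 1157, on the log2 scale. In B cells the corresponding medians were 0.64, 0.40, 0.62 and 0.63. Controls also differed among themselves: against the mean of the other controls, the median member in cortical epithelium stood at 0.46 in mouse 1057, 0.34 in mouse 1059, 0.06 in mouse 1172 and -0.72 in mouse 1143. Mouse 1057 stood at 0.55 in B cells and 0.71 in medullary T cells, again against the other controls. Thymoma mice 1044 and 1082 stood at 0.66 and 0.62 in T cells against the mean of all medullary controls. That mean includes mouse 1057, whose own value against it would be smaller, so these values cannot be set side by side. Within thymoma the SD of a member's level between mice had a median of 0.25 in epithelium, 0.28 in T cells and 0.19 in B cells, against 0.18, 0.18 and 0.15 for all probes. In control it was 0.45 in cortical epithelium, 0.55 in medullary epithelium, 0.40 in cortical T cells, 0.55 in medullary T cells and 0.60 in B cells, against 0.45, 0.35, 0.33, 0.36 and 0.53 for all probes.

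Pooling hid this spread between control mice, as mouse 1057 alone gave 70.0% of the pooled counts of cortical epithelium. In single libraries, every thymoma mouse lay above every control mouse for 51 members in epithelium against cortex, where 5.1% of all probes did so, and for 61 against medulla, where 9.95% did so. In T cells 58 members were separated against cortex and 55 against medulla, beside 4.55% and 9.66% of all probes. In B cells 18 members were separated, beside 2.02% of all probes. Only 10 members were separated in all 5 contrasts, as were 0.134% of all probes. The rule used these contrasts, so nothing is read from these counts. Without mouse 1143 the B cell count was 28, beside 3.25% of all probes.

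The edgeR quasi-likelihood test across all probes, with a Benjamini-Hochberg adjusted p under 0.05, called 20 members higher in thymoma epithelium than in cortical epithelium, where it called 2.4% of all probes higher. Against medullary epithelium it called 45 members and 7.28% of all probes, and in T cells against medulla 15 members and 3.92%. In T cells against cortex it called 0 members and 0% of probes, with 85 members and 9.74% of probes higher at an unadjusted p under 0.05, and DESeq2 called 53 members and 3.75% of probes. In B cells it called 0 members and 0.00496% of probes, with 46 members and 4.59% of probes higher at an unadjusted p under 0.05, and DESeq2 called 0 members and 0.109% of probes. These calls rest on the contrasts that chose the members and are given as description. The counts other than that in B cells depended on single mice, and the share of all probes called moved as well. Without control mouse 1143 the counts were 50, 63, 76 and 49 in the epithelial and T cell contrasts, where 5.91%, 12.2%, 6.72% and 10.0% of all probes were called higher, and 0 in B cells. Without control mouse 1172 they were 0 in all 5, beside 0.203% and 0.0248% of all probes in the epithelial contrasts and 0% elsewhere. Without thymoma mouse 1042 they were 1 and 4 in the epithelial contrasts, beside 0.719% and 1.05% of all probes, and 0 in the others. Without mouse 1157 they were 2 and 1 there, beside 0.892% and 0.54%, and 0 in the others. Against cortical epithelium the count was also 0 without mouse 1057, 0 without mouse 1059 and 33 without mouse 1082. Of all probes 0.287%, 0.456% and 3.83% were called there. Against medullary epithelium it was 29 without mouse 1044 and 22 without mouse 1082, beside 3.86% and 2.85% of all probes. In T cells against medulla it was 1 without mouse 1044, 0 without mouse 1082 and 38 without mouse 1057, beside 0.401%, 0% and 5.28%. The balance of all calls also moved with the scaling: against cortical epithelium 484 probes were higher and 207 lower, and with upper-quartile factors 407 and 818. Against medullary epithelium these were 1469 and 567, then 1170 and 3789, and in T cells against medulla 791 and 253, then 895 and 3168. The median of all probes shifted with it by more than 0.1, from -0.04 to -0.18 against cortical epithelium, while all 100 members stayed positive there.

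Both named members were picked by these same contrasts, so their fits and adjusted p are given as description. For RTS0061379 the fitted log2 fold change was 1.50 ± 0.29 (SE) against cortical epithelium, with an edgeR adjusted p of 0.0152. Against medullary epithelium it was 1.77 ± 0.37, with an adjusted p of 0.0193. For RTS0081419 it was 1.38 ± 0.36 with an adjusted p of 0.0473 in the first contrast, and 1.70 ± 0.50 with an adjusted p of 0.0520 in the second. RTS0061379 missed the threshold in the first contrast without mouse 1057, 1059 or 1172, with adjusted p of 0.0576, 0.0611 and 0.115, and in the second without mouse 1042, 1157 or 1172, with 0.0615, 0.0661 and 0.127. With any 1 mouse left out, its log2 fold change stayed between 1.32 and 2.02 in both contrasts. RTS0081419 missed it in the first contrast without any 1 of mice 1042, 1057, 1059, 1157 and 1172, with adjusted p of 0.102 to 0.211, and passed it in the second only without mouse 1057, at 0.0250. In T cells neither member passed the test, with an edgeR adjusted p of 0.148 for both against cortex, and of 0.0913 for RTS0061379 and 0.0842 for RTS0081419 against medulla. In B cells neither passed it, at 0.74 ± 0.24 with an adjusted p of 0.421 for RTS0061379 and 0.78 ± 0.33 with an adjusted p of 0.498 for RTS0081419.

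Differences between the classes of the same thymoma mice were not part of the rule for B cells, although the counts of both classes entered it. Members were on balance lower in B cells than in epithelium. With the mouse as a block, edgeR called 43 members lower in thymoma B cells than in thymoma epithelium at an adjusted p under 0.05, where it called 18.1% of all probes lower, and 1 member higher, where it called 11.3% higher. The fitted log2 fold changes of the members ran from -1.09 to 0.39, with a median of -0.34 against 0.04 for all probes. Of the 100, 9 were positive. Members were chosen for a positive difference between thymoma and control, and the part of that choice in this shift was not tested. The calls and adjusted p of members between thymoma classes, here and below, are thus given as description. With upper-quartile factors 35 members were lower and 3 higher, while all probes went from 2279 higher and 3661 lower to 4855 higher and 2703 lower. Without mouse 1042 22 members were called lower and 2 higher, beside 12.9% and 6.32% of all probes, and without mouse 1157 25 were lower and 0 higher, beside 13.1% and 6.73%. By CPM, 90 members were lower in B cells in mouse 1042, 75 in mouse 1157, 68 in mouse 1044 and 48 in mouse 1082. The share of all probes within a single mouse was not computed, so no direction is read from these counts. In pooled CPM 82 members lay lower in B cells, beside 30.2% of all probes. In every mouse 43 members were lower, as were 3481 of all 20175 probes.

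The largest fall belonged to the member ranked 58th. It measured 50.0, 51.7, 48.4 and 47.1 CPM in B cells of mice 1042, 1044, 1082 and 1157, and 126, 83.0, 79.9 and 97.4 CPM in epithelium. B cells were lower in all 4 mice, with a log2 fold change of -1.09 ± 0.15 (SE) and an edgeR adjusted p of 6.2e-05. The single member called higher, ranked 45th, measured 93.4, 79.9, 93.4 and 121 CPM in B cells against 84.3, 52.3, 61.5 and 72.8 CPM in epithelium, a change of 0.39 ± 0.14 with an adjusted p of 0.0435. Both members are described by rank because they were picked for these values. RTS0061379 was among those that fell, by 0.83 ± 0.14 on the log2 scale with an edgeR adjusted p of 0.00045, and was lower in all 4 mice. RTS0081419 did not pass the test, at -0.06 ± 0.19 with an adjusted p of 0.841.

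Against thymoma T cells, 19 members were called lower in B cells, where edgeR called 12.8% of all probes lower, and 1 higher, where it called 7.2%. The median log2 fold change of the members was -0.24 against 0.03 for all probes, and 18 members were lower in both comparisons. The share of all probes lower in both was not computed, so nothing is read from the count of 18. Both comparisons share the B cell libraries, so they are not separate evidence. Without mouse 1042 5 members were lower and 2 higher, without mouse 1044 7 lower and 0 higher, and without mouse 1157 6 lower and 1 higher, where 8.99%, 9.21% and 8.36% of all probes were lower, so that the members' counts of lower calls fell under the background. Without mouse 1082 38 were lower and 0 higher, beside 15.5% of all probes lower. With upper-quartile factors 20 were lower and 2 higher, and all probes went from 1453 higher and 2580 lower to 2064 and 2172. The member that fell most, ranked 87th, measured 101, 147, 106 and 130 CPM in B cells and 207, 231, 170 and 184 CPM in T cells, lower in all 4 mice. RTS0061379 stood at -0.32 ± 0.15 with an adjusted p of 0.166 and RTS0081419 at -0.03 ± 0.22 with an adjusted p of 0.944, and neither passed the test.

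**Figure D4:**
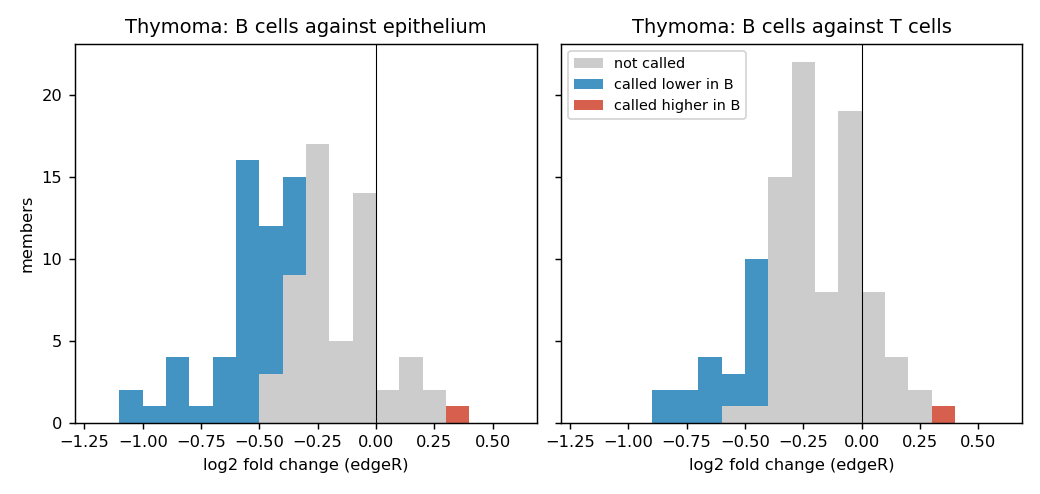
Number of members by fitted log2 fold change of thymoma B cells against thymoma epithelium (left) and against thymoma T cells (right), with members called at an edgeR adjusted p under 0.05 in colour. Most members lie below 0 in both panels, with 43 called lower on the left and 19 on the right, and 1 called higher in each.

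The control mice of the 2 genotypes, which lay on different slides, were compared with 2 mice a side. In cortical epithelium, edgeR called 0 members in either direction, beside 0.00999% of all probes, and DESeq2 called 0 members. At an unadjusted p under 0.05 edgeR had 6 members, beside 2.50% of all probes. In cortical T cells edgeR called 0 members and 0% of probes, and DESeq2 called 0 members. At an unadjusted p under 0.05 edgeR had 3 members, beside 0.917% of probes. In B cells edgeR called 0 members and 0.00499% of probes, and DESeq2 called 0 members. At an unadjusted p under 0.05 edgeR had 3 members, beside 1.22% of probes. The members' median change from Gtf2ifl/fl to Gtf2ifl/wt was -0.47 in cortical epithelium, -0.40 in cortical T cells and -0.41 in B cells, while all probes stood at -0.01, 0.03 and 0.00. The count of positive members was 8, 22 and 10 of 100. Without mouse 1172, which leaves mouse 1143 as the only Gtf2ifl/wt control and assumes that it varies like the others, the counts of called members were 12, 43 and 10, beside 6.13%, 32.8% and 3.78% of all probes.

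The thymoma slides, both of 1 genotype, were compared in the same way. From slide 1042/1044 to slide 1082/1157 the members' median change was -0.26 in T cells, with 5 positive, and 0.15 in B cells, with 86 positive, against 0.00 and 0.01 for all probes. In T cells this rested on mouse 1042, without which the median was 0.13, with 74 positive. It was -0.04 with 42 positive without mouse 1082, and -0.56 and -0.50 without mice 1044 and 1157. In B cells the median stayed between 0.04 and 0.31 when a mouse was left out. In T cells edgeR called 0 members, beside 0.0446% of probes, and DESeq2 called 3, beside 0.897%. At an unadjusted p under 0.05 edgeR had 5 members, beside 6.30% of probes. In B cells edgeR called 0 members, beside 0.0248% of probes, and DESeq2 called 1, beside 0.0347%. At an unadjusted p under 0.05 edgeR had 6 members there, beside 4.54% of probes. Leaving out 1 of the 4 mice left a slide with 1 mouse, so only the medians above are given for those fits. The difference between the classes itself was not tested.

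The members lay high in the range of probe levels. Their median was 77.8 CPM in control cortical epithelium, where the median of all probes was 30.9 CPM, and 106 CPM in thymoma epithelium, where that of all probes was 26.2 CPM. In control cortical epithelium 92 lay above the median of all probes and 52 among the highest 10% of probes. CPM of a probe also depends on how well it binds, so levels are not amounts of transcript. In 10 equal bins of mean control level, the lowest bin held 1 member, the ninth 22 and the highest 46. The share of probes within the limits that had 5 positive differences rose from 1.01% in the lowest bin to 28.4% in the highest. The median difference of thymoma minus medullary epithelium was -0.41 in the lowest bin and 0.23 in the highest, and for B cells it was -0.03 and 0.02. The difference between thymoma and control thus moved with the level over all probes, and the part of level in the members' differences was not tested.

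**Figure D5:**
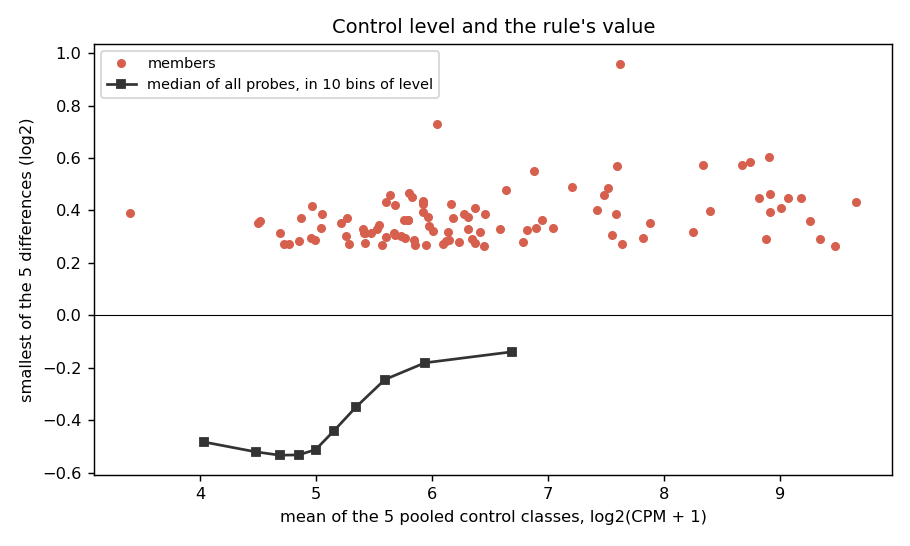
Smallest of the 5 differences of each member (points) against the mean level of the 5 pooled control classes, both on the log2 scale, with the median of all probes in each of 10 bins of level (line). The line runs from -0.48 in the lowest bin to -0.14 in the highest, and the first member, at 0.96, lies above all others.

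A feature that the rule did not use, the number in the probe ID, set a minority of the members apart from the others. When the ID numbers were split into runs of 100, a grid chosen after the values were seen, 147 of the 209 runs with probes held no member, 43 held 1 and 19 held 2 or more. A single run of 93 probes held 16 members, 17.2% of its probes, and the next fullest held 4. Of all probes 0.496% were members, and of those in the bin of highest control level 2.28%. These 16 included 5 of the first 10 members by rank. The sources used here do not say what a run of ID numbers stands for on the panel.

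The values of these 16 members, picked by that run, are a description with no test. Their mean control level was 178 to 710 CPM with a median of 464 CPM, whereas the other members had a median of 59.7 CPM. Their share of counts was 1.01% ± 0.18 (SD, n = 4) in epithelium, 1.06% ± 0.25 (n = 4) in T cells and 1.09% ± 0.13 (n = 4) in B cells of thymoma mice, against 0.59% ± 0.19 (n = 4) in cortical epithelium, 0.53% ± 0.26 (n = 3) in medullary epithelium, 0.56% ± 0.13 (n = 4) in cortical T cells, 0.53% ± 0.25 (n = 3) in medullary T cells and 0.74% ± 0.19 (n = 4) in B cells of controls. The control mouse 1057 reached 0.95% in B cells, above the 0.90% of thymoma mouse 1044, and 0.805% in medullary epithelium, where epithelium of mouse 1044 also gave 0.805%. The other 84 members took, in thymoma, 1.25% ± 0.18 of the epithelial counts, 1.20% ± 0.22 of the T cell counts and 1.10% ± 0.09 of the B cell counts (n = 4 each). In control they took 0.80% ± 0.11 (n = 4) and 0.70% ± 0.17 (n = 3) in cortical and medullary epithelium, 0.76% ± 0.08 (n = 4) and 0.69% ± 0.18 (n = 3) in cortical and medullary T cells, and 0.86% ± 0.12 (n = 4) in B cells. In pooled counts, 10 of the 16 lay higher in thymoma B cells than in thymoma epithelium, with a median difference of 0.02, while 8 of the other 84 did, with a median of -0.29. Of all probes 69.8% lay higher in B cells, and so did 52 of the other 77 probes of the run, with a median of 0.12. These 77 had a median control level of 438 CPM. Their median differences of thymoma minus control were 0.31 and 0.17 in epithelium against cortex and medulla, 0.51 and 0.26 in T cells and 0.07 in B cells. These lay above the medians of all probes given above. In the bin of highest control level the medians were 0.07 and 0.23 in epithelium, 0.15 and 0.26 in T cells and 0.02 in B cells. Against medulla the 77 thus lay below that bin in epithelium and level with it in T cells.

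The members also moved together from segment to segment within a mouse. Over the 37 thymoma segments, with the mean of each mouse and class taken off, the median correlation between pairs of members was 0.28, and 82.1% of pairs were positive, while the median for all probes was 0.03. Among the 16 members of the full run the median was 0.74, and it was 0.93 over the 12 T cell segments, where all members had a median of 0.38. Among the other 84 members it was 0.23 over the 37 segments. Segments of a class share their mice, and shares of a fixed total are tied to each other and to depth, so these correlations are given as description. Members also lie at higher levels than most probes, and the part of level in these correlations was not tested.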

How the data were processed

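Counts came from 95 segments of 8 mice on the GeoMx mouse whole transcriptome panel 1.0. The deposited files of the authors hold raw counts, whole numbers for each probe and segment, made with GeoMx_NGS_Pipeline 2.0.0 in DCC format 0.02, per the file headers, with no normalization or background correction. Probes that were not listed were set to 0. Alignment settings are not given in the sources used here. Segment totals were 8919 to 12551297 counts, with 130 to 8344 nuclei and 67.6% to 90.1% saturation (computed from the aligned reads of the headers), and no pair of segments held identical counts.

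The rule was applied with Python 3.11.15 and pandas 2.3.3. The members, lists and tests were chosen with earlier results of these data known. Named genes were to be the members with the largest smallest difference. The files do not pair probe IDs with genes, so 2 IDs are named, and the gene and marker lists were not used. Members singled out for their values are given by rank.

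Segment counts were summed per mouse and class. Probes passed filterByExpr, TMM set the library scaling, and groups were compared with edgeR 4.0.16 in R 4.3.3 (quasi-likelihood, Benjamini-Hochberg adjusted p under 0.05), over all probes. Only the groups compared entered a fit. The test was checked on simulated counts with the same dispersion for all probes and no slide effect. Mice of unequal spread were not simulated, so the check does not cover them. Classes of the same thymoma mice had the mouse as a block, as the labels name the animal of each segment. Same-mouse deviations over probes correlated at 0.26, 0.57, -0.003 and 0.15 between B cells and epithelium in mice 1042, 1044, 1082 and 1157, and at 0.27, 0.64, -0.01 and 0.30 between B and T cells. The highest correlation with another mouse was 0.12, 0.03, 0.21 and 0.16, and 0.05, 0.07, 0.18 and 0.15. Mouse 1082 was thus closer to another mouse in both, and mouse 1157 between B cells and epithelium. Fitted fold changes compare mice, whereas pooled differences weigh mice by their counts. Alternatives were upper-quartile scaling, DESeq2 1.42.0, limma 3.58.1 on mean log2 values of segments, no filter, no block, each mouse left out and controls of 1 genotype. For the rule they were TMM or upper-quartile factors, the mean over mice, a pseudocount of 5, probes above the median level, each mouse left out and controls of 1 genotype.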

Additional observations from a re-analysis of the deposited data

Results flagged for a closer look

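Among 18 groups of 4 libraries in which the highest and lowest values were compared with the rest, 1 value stood far from the others. In thymoma B cells the members took 1.87% of the counts in mouse 1044 and 2.24% to 2.31% in the other 3 mice, so that the gap made up 0.84 of the whole range. Chance gives such a gap in about 1 of 20 groups.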

How the results depend on the processing

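Of 141 alternatives to the choices made, 78 left a count of members within 1.5 times its value and 63 moved it. The causes were not tested. The counts below follow the order cortical epithelium, medullary epithelium, cortical T cells and medullary T cells for thymoma against control. DESeq2 called 43, 78, 53 and 72 members in place of 20, 45, 0 and 15. It called 3.56%, 13.4%, 3.75% and 11.6% of all probes higher, in place of 2.4%, 7.28%, 0% and 3.92%. With limma on segment means the count was 0 in each, beside 0% to 0.0694% of all probes. Upper-quartile scaling gave 26 against medullary T cells, beside 4.44% of all probes. With Gtf2ifl/wt controls alone the counts were 0, 60, 0 and 38, beside 0%, 7.77%, 0% and 5.28% of all probes. With Gtf2ifl/fl controls alone the cortical contrasts gave 1 and 0, beside 0.778% and 0.0149%. In the medullary contrasts that choice leaves 1 control mouse, and the members' median log2 fold change was 0.70 and 0.63. Leaving out 1 mouse gave 0 to 50, 0 to 63, 0 to 76 and 0 to 49. The shares of all probes were 0.203% to 5.91%, 0.0248% to 12.2%, 0% to 6.72% and 0% to 10.0%.

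Without the replicate block, thymoma B cells differed from epithelium in 25 members in place of 44, beside 21.8% of all probes in place of 29.4%. From T cells they differed in 7 in place of 20, beside 15.4% in place of 20.0%. Leaving out 1 mouse gave 24 to 64 and 7 to 38, beside 19.2% to 33.8% and 13.8% to 23.2% of all probes.

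For the control genotypes, limma called 1 member in B cells, and leaving out 1 mouse gave 0 to 12 in cortical epithelium, 0 to 43 in cortical T cells and 0 to 10 in B cells. For the thymoma slides in T cells, upper-quartile scaling called 1 member, DESeq2 3 and limma 2, and leaving out 1 mouse gave 0 to 12. In B cells upper-quartile scaling called 2 and DESeq2 1, beside 0.0793% and 0.0347% of all probes. For the slides in T cells, 0.0595%, 0.897% and 0.287% of all probes were called under upper-quartile scaling, DESeq2 and limma. For the control genotypes in B cells, limma called 0.12% of all probes. Leaving out 1 of these mice left a group with 1 mouse, so nothing is read from those counts.

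The choice of members also moved. The rule chose 56 of the 100 again with TMM factors, 23 with the mean over mice, 62 with Gtf2ifl/fl controls alone, 34 with Gtf2ifl/wt controls alone and 43 to 92 without 1 mouse, with 44 left without mouse 1057 and 43 without mouse 1059. All 5 differences stayed positive for 93 or more of the 100 in each of these settings. Depth limits mouse 1143 most, where 3 counts are 47.0 CPM in B cells and 28.9 CPM in cortical epithelium.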
